A study of Mus musculus with 4 samples.

Results

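Cadherins and catenins form the adherens junction, and 10 of their genes were examined in sorted pancreatic β cells of mouse neonates at day 13. The genes were taken by symbol from a list (Cdh1, Cdh2, Cdh4, Cdh13, Ctnna1, Ctnna2, Ctnnb1, Ctnnd1, Ctnnd2 and Jup), and the rule that selects their rows uses no measured value, although the list was drawn up with earlier results of these data known. All 10 were present among the 51912 genes of the table, and all 10 passed the filter on low counts that 16517 genes passed.

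Robo mutant cells carried Robo1delta/delta with Robo2flx/flx, and control cells carried Robo1+/+ with Robo2+/+. Cells of both genotypes were heterozygous for Ucn3-Cre, a recombinase driven by a gene of maturing β cells, and for Rosa26-lsl-H2B-mCherry, the nuclear reporter used for sorting. The Robo1 allele is labelled as deleted, so its loss is not limited to cells with Cre, whereas loss of Robo2 depends on Cre. Each genotype had 2 libraries of full-length cDNA made from little RNA, and the series title asks whether β cells need Roundabout receptors for endocrine cells to sort into mature islets. Whether each library is a different animal is not labelled, so p-values cover the spread among 4 libraries only, and that spread may be technical.

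Classical cadherins are adhesion receptors that bind the same cadherin on a neighbouring cell through calcium-dependent extracellular domains. Their cytoplasmic tail binds p120-catenin near the membrane and β-catenin or plakoglobin further along, and α-catenin links that complex to actin. In islets, E-cadherin and N-cadherin hold endocrine cells together, and differences in cadherin type or amount are a classical way for mixed cells to sort from each other. β-catenin also acts in the nucleus as a coactivator of Wnt target genes.

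The totals were 49593712 and 47788000 counts in the mutant libraries and 48217557 and 38886129 in the controls. Robo1 stood at 22.3 and 21.0 CPM, counts scaled to a common library total, in mutant libraries 1 and 2, against 48.5 and 104 CPM in controls 1 and 2, and Robo2 at 32.7 and 25.6 CPM against 75.3 and 118 CPM. Although altered by design, neither passed edgeR's test (adjusted p = 0.680 for each), while DESeq2 called both (adjusted p of 0.0019 and 1.99e-05). All 9 β-cell markers, among them Ins1, Ins2, Pdx1 and Ucn3, were detected in each library. They summed to 226300 and 159100 CPM in the mutants and 230200 and 196200 CPM in the controls, with a log2 change below 0 in 8 of 9, and 4 of 9 (Iapp, G6pc2, Pdx1 and Mafa) were lower in both mutants than in both controls, as were 20.4% of all tested genes. The libraries also held transcripts of other cells. Summed over 13 acinar markers, mutant 1 and mutant 2 had 2248 and 42880 CPM, and control 1 and control 2 had 4777 and 543.5 CPM, with the acinar factor gene Ptf1a at 0 in mutant 1. Over 8 stromal markers the sums were 1077 and 11.3 CPM in the mutants and 2376 and 691 CPM in the controls, with Col1a1, Pdgfra, Pdgfrb and Rgs5 at 0 in mutant 2. The 6 endothelial markers summed to at most 0.880 CPM in the mutants, with Kdr, Cdh5, Tek and Emcn at 0 in both, and to 0.961 and 11.5 CPM in the controls. Alpha-cell markers summed to 19430 and 24190 CPM in the mutants and 23990 and 11940 CPM in the controls, most of it Gcg. PP-cell markers summed to 7133 and 4995 CPM against 6407 and 4314 CPM in the controls, but the 2 genes disagreed. Ppy was at 2315 and 788 CPM in the mutants and 2593 and 1394 CPM in the controls. Pyy was at 4818 and 4207 CPM in the mutants and 3814 and 2920 CPM in the controls. Duct markers reached 452 and 493 CPM in the mutants and 457 and 501 CPM in the controls, with Cftr at 0 in all 4 libraries. Most of each duct sum came from Krt7, at 403.7 and 387.5 CPM in the mutants and 410 and 431.8 CPM in the controls. Myeloid markers reached 32.9 and 32.8 CPM in the mutants and 29.3 and 7.71 CPM in the controls. Since cells were pooled in each library, fewer cells of a type and less RNA per cell cannot be told apart.

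By level the genes formed 3 tiers, which were the same in both genotypes. Levels between genes are given as CPM per kilobase of merged exons, which scales for transcript length. E-cadherin (Cdh1) was the highest, at 162 ± 31.9 in mutant and 191 ± 14.0 CPM per kilobase in control cells (SD, n = 2 each). β-catenin (Ctnnb1) followed at 90.2 ± 1.73 and 77.7 ± 9.39 CPM per kilobase in mutant and control cells. Every library kept these 2 genes above the other 8, and Cdh1 above Ctnnb1.

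Next came αE-catenin (Ctnna1), plakoglobin (Jup), N-cadherin (Cdh2) and p120-catenin (Ctnnd1), between 12.5 and 26.1 CPM per kilobase in single libraries. In mutant cells their order was Cdh2, Ctnna1, Jup and Ctnnd1, where the first 3 overlapped between neighbours and Ctnnd1 lay below them. In control cells the order was Ctnna1, Jup, Cdh2 and Ctnnd1, where only Ctnna1 and Jup overlapped. Cdh2 thus ranked 3 in mutant and 5 in control cells, or 4 and 5 when the longest transcript was used as length. The last tier held R-cadherin (Cdh4), αN-catenin (Ctnna2), δ-catenin (Ctnnd2) and T-cadherin (Cdh13), at most 3.08 CPM per kilobase in any library. Cdh4, Ctnna2 and Ctnnd2 overlapped as neighbours in both genotypes, and Cdh13 was below them.

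**Figure D1:**
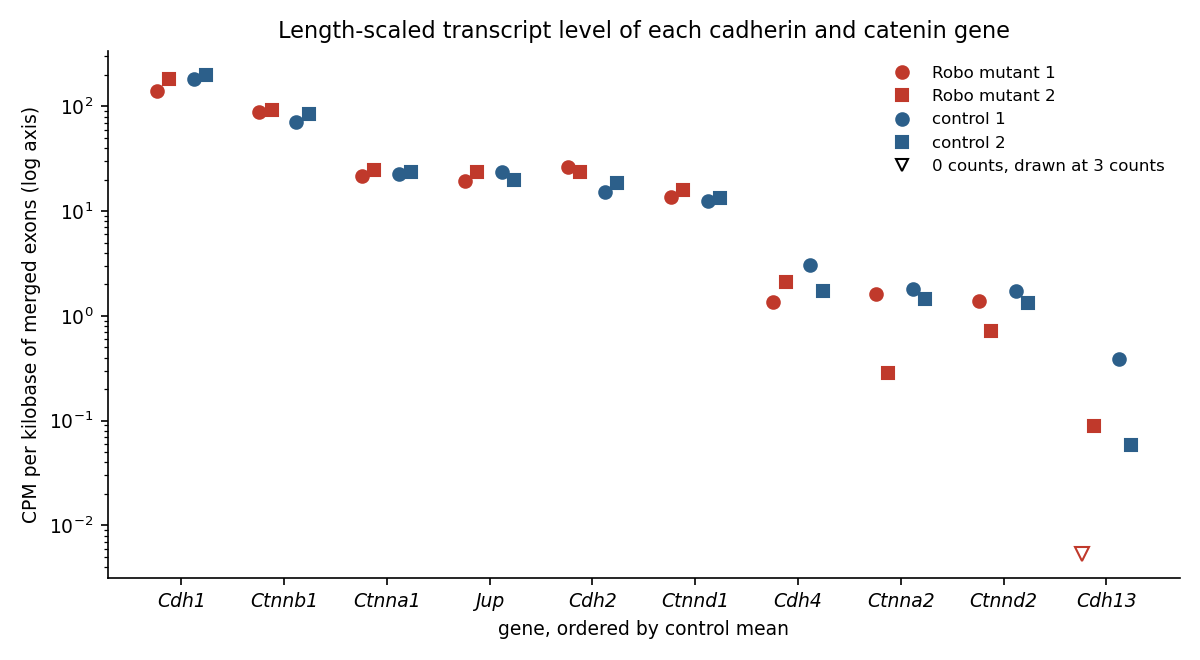
Level of the 10 genes in each library, in CPM per kilobase of merged exons on a log axis, with genes ordered by their control mean. Cdh1 and Ctnnb1 lie highest in all 4 libraries, and Cdh13 lies lowest, with its 0 counts in mutant 1 drawn as an open triangle at 3 counts.

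Of the 10 genes, 0 passed edgeR's quasi-likelihood test after adjustment over all tested genes, where 0% of 16517 genes passed and the smallest adjusted p was 0.680. At an unadjusted p under 0.05 the count was 1 of 10, against 6.21% of all tested genes, a share near the background. That gene, Cdh2, was higher in the mutant, as were 1.99% of all tested genes at that p, while 4.21% were lower. DESeq2 and limma-voom also called 0 of the 10, DESeq2 calling 0.914% of all genes and limma-voom 0%. The genotypes did not overlap in 3 of the 10 genes, against 36.6% of all tested genes. In these 3, Cdh2, Ctnnb1 and Ctnnd1, both mutant libraries lay above both controls, as in 16.1% of all tested genes. In 0 of the 10 did both mutants lie below both controls, against 20.4% of all tested genes. The log2 change was above 0 in 4 of the 10 and below 0 in 6, against 48.7% and 51.3% of all tested genes, and its median was -0.12, beside -0.01 over all tested genes.

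N-cadherin, the second classical cadherin of endocrine cells, showed the smallest p of the list. Cdh2 (ENSMUSG00000024304, chromosome 18, 16588877 to 16809246, minus strand, GRCm38) was measured at 211 and 191 CPM in mutant libraries 1 and 2, against 123 and 151 CPM in controls 1 and 2. The groups did not overlap, and the lowest mutant library exceeded the highest control. Its mean was 201 ± 13.7 CPM in mutant and 137 ± 20.3 CPM in control cells (SD, n = 2 each), 1.47-fold higher in the mutant. The log2 change was 0.55 ± 0.16 (SE), and edgeR's quasi-likelihood test gave an unadjusted p of 0.022 and an adjusted p of 0.680. DESeq2 gave an adjusted p of 0.0771 and limma-voom one of 0.801, with a 95% interval of the log2 change from 0.18 to 0.95. That interval is not adjusted for the number of genes tested, nor for picking the gene of smallest p. Over the 12 alternatives its adjusted p ranged from 0.0771 to 1. Stromal cells also express N-cadherin, and their summed markers were at 1077 and 11.3 CPM in the mutants and 2376 and 691 CPM in the controls. Delta-cell markers summed to 2506 and 1289 CPM in the mutants and 1063 and 981 CPM in the controls, but in mutant 2 their genes disagreed. There Sst stood at 803 CPM against 793 and 712 CPM in the controls, and Hhex at 8.89 CPM against 9.76 and 12.9 CPM. Rbp4 stood at 470 CPM in mutant 2 against 258 and 254 CPM, and Ghsr at 6.88 CPM against 2.11 and 1.87 CPM. The part of stromal and delta cells in the Cdh2 difference was not tested.

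E-cadherin, the main cadherin of epithelia, was lower on average in the mutant, and the genotypes overlapped. Cdh1 (ENSMUSG00000000303, chromosome 8, 106603351 to 106670246, plus strand, GRCm38) was at 636 and 842 CPM in the mutants and at 827 and 918 CPM in the controls. Mutant 1 was the low library, while mutant 2 lay between the controls. The log2 change was -0.24 ± 0.20 (SE, edgeR, adjusted p = 0.981), and the limma-voom 95% interval ran from -0.67 to 0.16. Without mutant 1 it was -0.05, and without mutant 2 it was -0.46, so that the size of the difference rested on mutant 1. Mutant 2 was the library richest in acinar markers, which summed to 2248 and 42880 CPM in mutants 1 and 2. In the controls they summed to 4777 and 543.5 CPM, and the part of acinar cells in the Cdh1 levels was not tested.

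Set against each other within a library, E-cadherin exceeded N-cadherin 5.32-fold and 7.77-fold per length in mutants 1 and 2, and 11.9-fold and 10.7-fold in controls 1 and 2. The mean ratio was 6.54 ± 1.73 in mutant and 11.3 ± 0.846 in control cells (SD, n = 2 each), and the genotypes did not overlap. This ratio needs no scaling between libraries, but it was picked with the values known, and with 2 libraries a genotype an exact two-sided permutation test cannot go below p = 0.333. The summed level of the 3 classical cadherins Cdh1, Cdh2 and Cdh4 was 166 and 210 CPM per kilobase in the mutants and 199 and 221 CPM per kilobase in the controls, which overlapped.

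**Figure D2:**
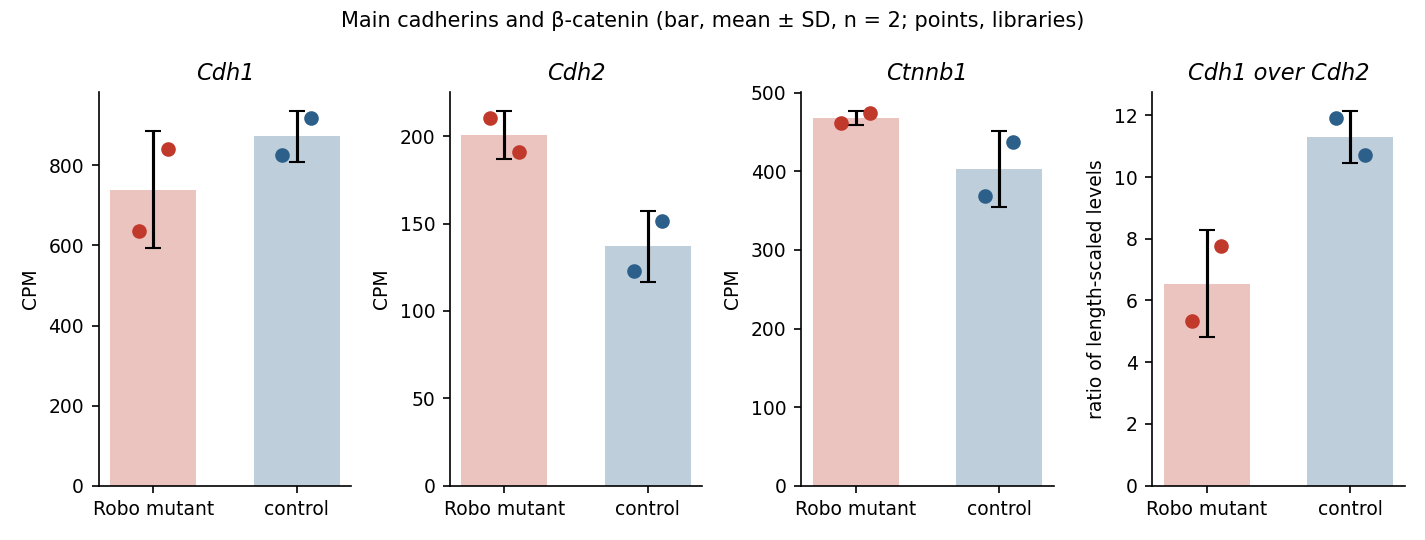
CPM of Cdh1, Cdh2 and Ctnnb1, and the ratio of the length-scaled levels of Cdh1 and Cdh2, in Robo mutant and control cells. Bars are means with SD over 2 libraries and points are libraries; Cdh2 is at 211 and 191 CPM in the mutants against 123 and 151 CPM in the controls, and the ratio is at 5.32 and 7.77 against 11.9 and 10.7.

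The other cadherins of the list were scarce. R-cadherin, a classical cadherin best known from retina and brain, was at 9.88 and 15.2 CPM in the mutants and 22.3 and 12.6 CPM in the controls (Cdh4, ENSMUSG00000000305, chromosome 2, 179442431 to 179899373, plus strand). The groups overlapped, and control 1 was the high library. Its log2 change was -0.48 ± 0.41 (SE, edgeR, adjusted p = 0.986), or -0.01 without control 1, -0.82 without mutant 2 and -0.83 without control 2. T-cadherin is anchored to the membrane by a lipid and lacks the cytoplasmic tail that binds catenins. Cdh13 (ENSMUSG00000031841, chromosome 8, 118283733 to 119324921, plus strand) had 0 and 45 counts in mutants 1 and 2, against 207 and 27 counts in controls 1 and 2. At 3 counts, where the 0 in mutant 1 is drawn, the level would be 0.0600 CPM. Mutant 2 lay above control 2, so the groups overlapped, and the log2 change was -2.33 ± 2.26 (SE, edgeR, adjusted p = 0.999). Its standard error was nearly as large as the change. Stromal markers summed to 1077 and 11.3 CPM in the mutants and 2376 and 691 CPM in the controls, and their part in the Cdh13 counts was not tested.

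β-catenin binds the cadherin tail and α-catenin, and plakoglobin, its paralogue, can take its place at the junction. Ctnnb1 (ENSMUSG00000006932, chromosome 9, 120929216 to 120960507, plus strand, GRCm38) was at 462 and 475 CPM in the mutants and 369 and 438 CPM in the controls. Both mutants lay above both controls, and the mutant libraries differed less from each other than the controls did. The mean was 1.16-fold higher in the mutant, and the log2 change was 0.22 ± 0.15 (SE, edgeR, adjusted p = 0.962). The limma-voom 95% interval ran from -0.09 to 0.54, and the log2 change was 0.098 without control 1 and 0.35 without control 2. Ctnnb1 shares 759 exonic bases with Ulk4 on the opposite strand, and reads there cannot be told apart, because the libraries carry no strand mark. Ulk4 itself was at 35.8 and 19.7 CPM in the mutants and 36.0 and 28.3 CPM in the controls.

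Plakoglobin, which also serves desmosomes, was at 124 and 152 CPM in the mutants and 151 and 126 CPM in the controls (Jup, ENSMUSG00000001552, chromosome 11, 100368958 to 100397763, minus strand). Its means of 138 ± 20.3 CPM in mutant and 139 ± 17.6 CPM in control cells differed by less than the spread within a genotype. The log2 change was -0.0074 ± 0.17 (SE, edgeR, adjusted p = 1), with a limma-voom 95% interval from -0.45 to 0.42, and its sign differed between settings. Per length β-catenin exceeded plakoglobin 4.63-fold and 3.86-fold in the mutants and 3.02-fold and 4.30-fold in the controls, which overlapped.

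The start regions of this paralogue pair are shown because the pair fills the same place in the complex at unlike levels. RefSeq windows of 300 bases (GRCm38.p6) were at hand for 5 of the 10 genes, and the 2 windows below lie at chr9:120933328-120933627 on the plus strand and chr11:100397741-100398040 on the minus strand. Ctnnb1 has a second window, which overlaps the one shown. Capitals mark core letters of promoter boxes on either strand. TATAAA was searched for the first of them, CCAAT for the second kind and, for the box that Sp1 binds, GGGCGG, and no marked motif overlaps another.
Ctnnb1: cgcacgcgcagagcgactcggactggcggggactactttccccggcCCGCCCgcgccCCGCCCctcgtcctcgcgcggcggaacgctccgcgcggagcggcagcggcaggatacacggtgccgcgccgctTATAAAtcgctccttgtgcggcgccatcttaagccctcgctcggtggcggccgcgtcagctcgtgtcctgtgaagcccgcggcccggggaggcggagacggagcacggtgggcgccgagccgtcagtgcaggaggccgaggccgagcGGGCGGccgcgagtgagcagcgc
Jup: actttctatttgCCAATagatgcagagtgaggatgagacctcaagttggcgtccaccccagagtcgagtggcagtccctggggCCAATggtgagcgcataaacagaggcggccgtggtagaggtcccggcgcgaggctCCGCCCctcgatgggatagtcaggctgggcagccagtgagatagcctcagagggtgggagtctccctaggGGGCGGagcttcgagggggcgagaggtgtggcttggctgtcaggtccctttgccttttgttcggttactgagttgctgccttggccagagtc
The Ctnnb1 window held 1 TATAAA and 3 GGGCGG, with 51 CG dinucleotides and 75.0% G and C. The Jup window held 2 CCAAT and 2 GGGCGG, with 14 CG dinucleotides and 60.7% G and C. The second Ctnnb1 window, not printed, held 0 TATAAA, 2 CCAAT and 3 GGGCGG. Which boxes set Ctnnb1 apart from Jup thus depends on the window taken. Among 32851 RefSeq windows of that length, 13.6% held TATAAA, 37.4% CCAAT and 35.7% GGGCGG on either strand. These matches describe letters and not factor binding.

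α-catenin carries the link from β-catenin to actin, with αE-catenin as the epithelial and αN-catenin as the neural form. Ctnna1 (ENSMUSG00000037815, chromosome 18, 35118859 to 35254779, plus strand, GRCm38) was at 140 and 160 CPM in the mutants and 144 and 153 CPM in the controls. The mutants lay on either side of the controls, and the log2 change was 0.016 ± 0.13 (SE, edgeR, adjusted p = 1), with a limma-voom 95% interval from -0.32 to 0.34. Ctnna2 (ENSMUSG00000063063, chromosome 6, 76881637 to 77979699, minus strand) was at 11.3 and 1.98 CPM in the mutants and 12.4 and 9.99 CPM in the controls. Mutant 1 lay between the controls, while mutant 2 lay below every other library. The log2 change of -0.76 ± 0.86 (SE, edgeR, adjusted p = 1) became 0.0066 without mutant 2 and -2.50 without mutant 1.

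p120-catenin binds the membrane-near part of the cadherin tail and holds cadherins at the surface, and δ-catenin is its neural relative. Ctnnd1 (ENSMUSG00000034101, chromosome 2, 84600071 to 84650765, minus strand) was at 99.0 and 117 CPM in the mutants and 91.3 and 97.1 CPM in the controls. Both mutants exceeded both controls, and the log2 change was 0.20 ± 0.14 (SE, edgeR, adjusted p = 0.967), or 0.073 without mutant 2 and 0.32 without mutant 1. It shares 4482 exonic bases with the read-through gene Gm28635, which had 0 counts in every library. Ctnnd2 (ENSMUSG00000022240, chromosome 15, 30172593 to 31029341, plus strand) was at 14.4 and 7.35 CPM in the mutants and 17.8 and 13.6 CPM in the controls. Mutant 2 was again the low library and mutant 1 lay between the controls. Its log2 change was -0.53 ± 0.43 (SE, edgeR, adjusted p = 0.981), or -0.12 without mutant 2 and -1.09 without mutant 1.

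**Figure D3:**
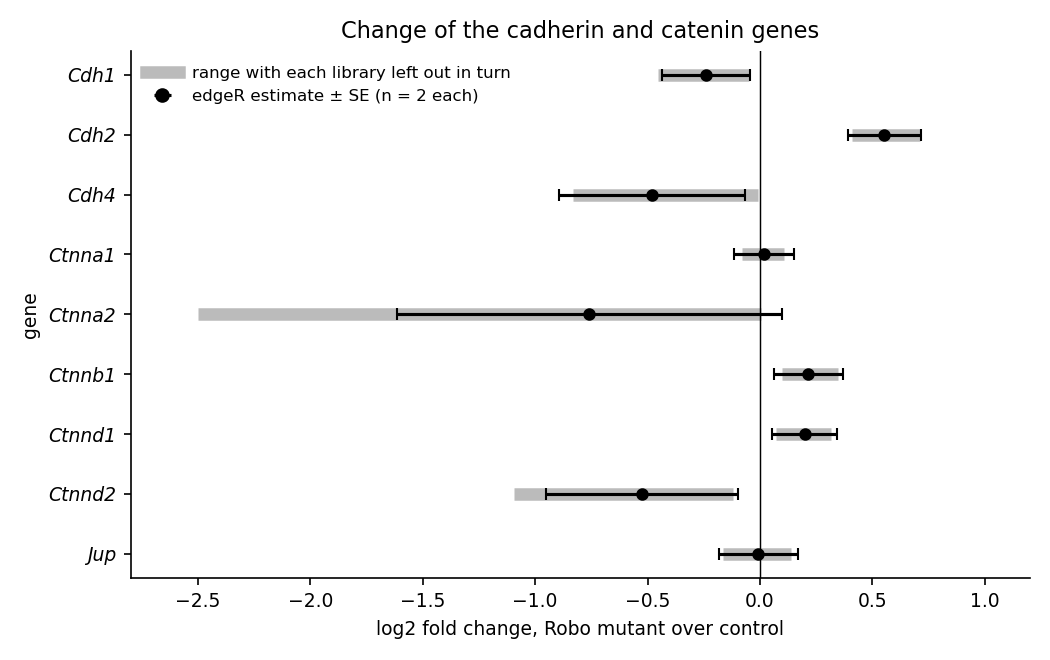
Log2 fold change, Robo mutant over control, of 9 genes with the standard error from edgeR (n = 2 each), and in grey the range when each library is left out in turn. Cdh2, at 0.55, stays between 0.41 and 0.71, while Ctnna2 runs from -2.50 to 0.0066; Cdh13 is not drawn, because its fitted value without mutant 2 depends on a count of 0.

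The neural forms Ctnna2 and Ctnnd2 were both lowest in mutant 2, the library with 42880 CPM of acinar and 11.3 CPM of stromal markers. Over 5 neural and glial markers the sums were 25.9 and 37.6 CPM in the mutants and 39.1 and 36.2 CPM in the controls, with S100b at 0 in both mutants. Most of each sum came from Tubb3, at 22.4 and 25.8 CPM in the mutants and 31.3 and 29.3 CPM in the controls. The part of acinar, stromal, neural or glial cells in the levels of Ctnna2 and Ctnnd2 was not tested.

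**Figure D4:**
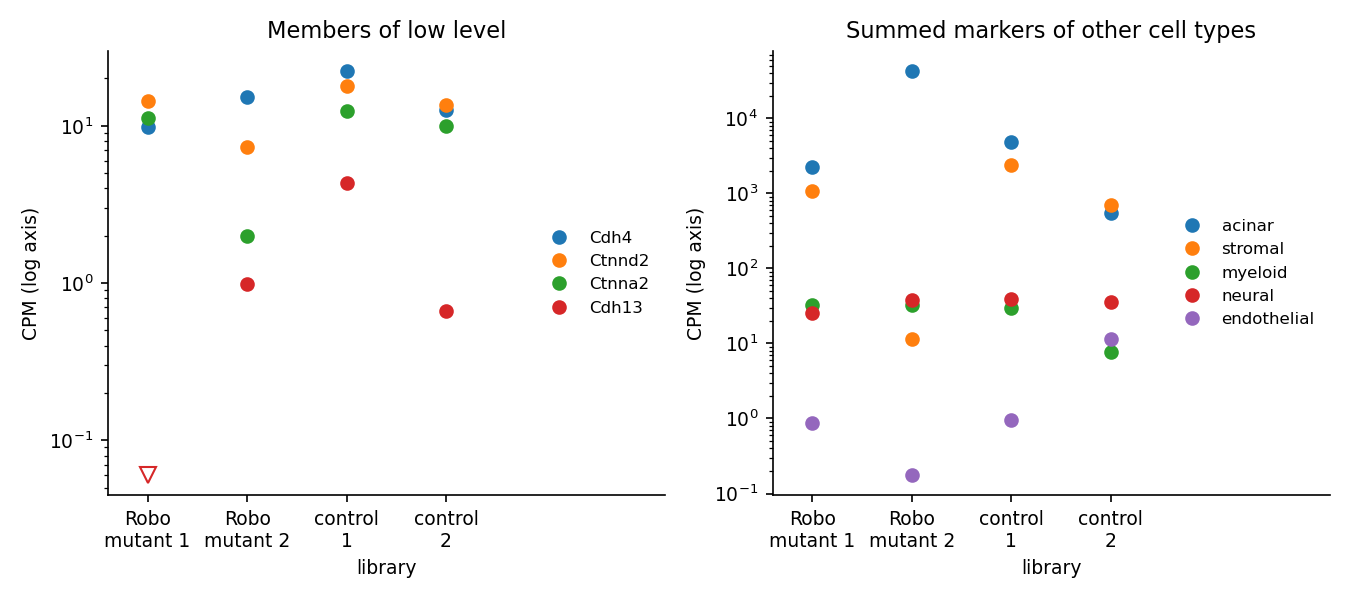
CPM of the 4 scarce genes (left) and summed CPM of marker genes of other cell types (right) in each library, on log axes. Ctnna2 and Ctnnd2 are lowest in mutant 2, at 1.98 and 7.35 CPM, where acinar markers reach 42880 CPM; the open triangle is Cdh13 at 0 counts in mutant 1, drawn at 3 counts.

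Around these members, 8 lists of related genes held 77 tested genes, of which edgeR, DESeq2 and limma-voom each called 0 after adjustment over all genes. At an unadjusted p under 0.05 in edgeR there were 2 of the 77, Lima1 and Lgr5, against 6.21% of all tested genes. Both were lower in the mutant, and Lgr5, at 0 counts in both mutants, passed the filter only through the controls. Of 19 other cadherins 9 passed the filter, 3 with a log2 change above 0 and 6 below. Their median was -0.39, beside -0.01 over all tested genes, of which 51.3% were below 0. Some of the 9 had 0 counts in a library, among them Cdh3, at 0 in mutant 2. The most abundant of the 9 was Cdh22, at 46.7 and 56.3 CPM in the mutants and 56.2 and 44.9 CPM in the controls. Cdh8, a type II cadherin, was at 30.3 and 14.8 CPM in the mutants, below both controls at 35.0 and 37.8 CPM (log2 change -0.69, edgeR, unadjusted p = 0.135). Cdh7 (-0.44), Cdh6 (0.68) and P-cadherin, Cdh3 (-0.81), overlapped between genotypes. VE-cadherin, the endothelial Cdh5, did not pass the filter, with 0 counts in both mutants and 6 and 77 counts in the controls. Cdh23, the cadherin of hair-cell tip links, had 147 counts in mutant 1 and 0 in the other libraries. Both Cdh5 and Cdh23 were named after their values were seen. Of the further catenins, the p120 relatives Arvcf (-0.32) and Pkp4 (-0.12) and the α-catenin-like Ctnnal1 (-0.11) all overlapped between genotypes.

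Partners at the adherens junction divided evenly, with 10 of 20 above 0 and 10 below and a median of 0.055. Vinculin, which binds α-catenin under tension, was at 44.7 and 41.3 CPM in the mutants and 32.9 and 32.7 CPM in the controls (Vcl, log2 change 0.39, edgeR, unadjusted p = 0.0536). The actin adaptor afadin pointed the same way (Afdn, 0.31), with both mutants above both controls. Lower in both mutants were EPLIN, another α-catenin partner, at 22.9 and 19.3 CPM against 32.4 and 29.7 CPM in the controls (Lima1, -0.56, edgeR, unadjusted p = 0.0394, adjusted p = 0.775), and the actomyosin regulator Shroom3 (-0.45). In 5 of the 20 both mutants lay above both controls and in 5 below, beside 16.1% and 20.4% of all tested genes. The most abundant partner was the receptor phosphatase gene Ptprf, at 309 and 444 CPM in the mutants and 417 and 386 CPM in the controls. Among 8 genes of cadherin maturation, cleavage and turnover, 2 were above 0 and 6 below. Adam10, whose protease sheds the outer part of E-cadherin and N-cadherin, was at 62.7 and 60.1 CPM in the mutants and 52.0 and 52.3 CPM in the controls (0.24, edgeR, unadjusted p = 0.128). The E-cadherin ubiquitin ligase gene Cbll1 was lower in both mutants (-0.12), while Furin (-0.13), Fyn (-0.45) and the γ-secretase gene Ncstn (0.056) overlapped between genotypes.

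Transcriptional repressors of E-cadherin, which bind E-box motifs, were scarce or overlapped. Of 8 genes 5 were tested, 2 above 0 and 3 below. Snai2 was at 7.60 and 3.12 CPM in the mutants and 4.07 and 2.58 CPM in the controls (0.69, edgeR, unadjusted p = 0.350). Zeb2 was at 11.6 and 2.40 CPM in the mutants and 17.0 and 1.62 CPM in the controls. Summed stromal markers stood at 1077 and 11.3 CPM in the mutants and 2376 and 691 CPM in the controls. Zeb2 was lowest in control 2, and the stromal sum was lowest in mutant 2. Myeloid markers summed to 32.9 and 32.8 CPM in the mutants and 29.3 and 7.71 CPM in the controls. The part of stromal or myeloid cells in the Zeb2 levels was not tested. Tcf3 (-0.20) and Tcf4 (-0.045) overlapped, and Snai1, untested and named after its values were seen, had 0 counts in both mutants and 7 and 0 in the controls. Desmosome genes, which include partners of plakoglobin, had 3 of 8 tested members above 0 and 5 below. Desmoplakin was at 25.0 and 24.1 CPM in the mutants and 28.3 and 36.9 CPM in the controls (Dsp, -0.41, edgeR, unadjusted p = 0.116). Plakophilin 3 was also lower in both mutants (Pkp3, -1.23), while Dsg2 (-0.42), Ppl (-0.17) and Evpl (0.22) overlapped.

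Genes that degrade β-catenin or act with it in the nucleus showed no common direction. In the degradation list 5 of 10 were above 0 and 5 below, with a median of -0.047. Fbxw11, a ubiquitin ligase subunit that recognises β-catenin, was at 140 and 190 CPM in the mutants and 232 and 214 CPM in the controls (-0.43, edgeR, unadjusted p = 0.0796). Ctnnbip1, an inhibitor of nuclear β-catenin, was also lower in both mutants (-0.099), and Btrc (0.13), Amer1 (0.52) and Csnk1a1 (0.035), the most abundant, overlapped. In the list of nuclear partners and targets 8 of 14 were above 0 and 6 below, with a median of 0.020. Lgr5, a Wnt target and receptor of R-spondins, had 0 counts in both mutants and 41 and 39 in the controls (edgeR, unadjusted p = 0.0096, adjusted p = 0.680). Setting each mutant library at 3 counts gives a level 14.4-fold lower in the mutant, which is not a firm bound. Within a genotype 0 also stood beside higher counts, as for Nkd1, with 196 and 0 counts in mutants 1 and 2. A gene at 0 in both mutants passes the filter only with 10 or more counts in both controls. The coactivator gene Bcl9 was at 20.5 and 21.0 CPM in the mutants and 31.0 and 27.0 CPM in the controls (-0.48), and Tcf7l1 was also lower in both mutants (-1.42). The targets Cd44 (0.49), higher in both mutants, and cyclin D1 (Ccnd1, 0.85), at 88.8 and 41.3 CPM in the mutants and 27.4 and 44.9 CPM in the controls, pointed up, cyclin D1 through mutant 1.

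**Figure D5:**
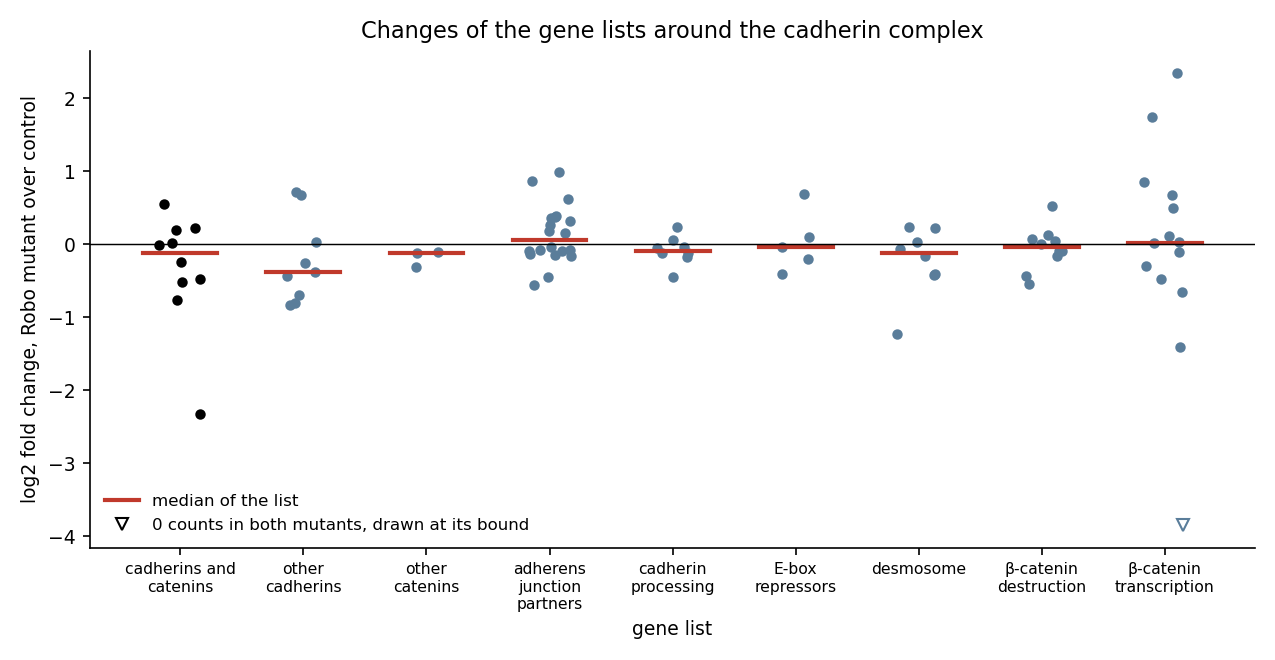
Log2 fold change, Robo mutant over control, of the tested genes in the cadherin and catenin list and in 8 related lists, with 1 point per gene and the list median in red. List medians lie between -0.39 and 0.055, and the open triangle is Lgr5, drawn with each mutant library set at 3 counts.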

How the data were processed

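The authors deposited 1 table of gene-level expected counts from RSEM, in whole numbers, for 51912 genes in 4 libraries (0 columns of other samples). Its name calls the values normalized, but its columns sum to different totals, and a rescaling of whole libraries before deposit was not tested. Of tools, the aligner STAR 2.5.3a, the quantifier RSEM 1.3.0, bcl2fastq 2.20.0.422 and edgeR 3.16.5 appear per the submitters' processing notes, with GRCm38 as build. Which annotation release was used is not given in the sources used here.

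Counts were tested two-sided with edgeR 4.0.16 in R 4.3.3 (glmQLFit and glmQLFTest) after TMM scaling. A gene entered when 2 or more libraries had 10 or more counts, which left 16517. P-values were adjusted by Benjamini and Hochberg over all of them, with a threshold of 0.05. The standard error is the absolute log2 change divided by the square root of the F statistic. DESeq2 1.42.0 and limma 3.58.1 (voom) were run as alternatives, and intervals of a difference come from voom. The tests were checked on simulated counts. CPM uses TMM-scaled totals, and levels between genes use CPM per kilobase of merged GENCODE M21 exons (GRCm38). Overlapping and near-identical transcripts were searched with BLAST 2.17.0. The members and lists were chosen with earlier results of these data known. From each list the text names up to 4 genes of smallest p and its most abundant gene, with others marked. One gene of the marker lists is not reported here and is left out of its list's sum.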

Additional observations from a re-analysis of the deposited data

How the results depend on the processing

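Over all genes DESeq2 called 151, against 0 in edgeR, and the fits without 1 library called 0 to 1. The count of called cadherin and catenin genes was 0 of 10 under all 12 alternatives, but apart from DESeq2 these called at most 1 gene of any kind, so their 0 says nothing about stability. Of 119 single-gene values under the alternatives, 110 kept their direction and 9 did not, and these 9 belonged to Jup, Ctnna1 and Ctnna2. Jup was at 0.0079 with DESeq2, 0.0080 with RLE size factors in edgeR, 0.0012 with at least 50 counts in 2 libraries, and from -0.16 to 0.14 with 1 library left out. Ctnna1 was at -0.047 on library totals alone and from -0.080 to 0.11 with 1 library left out. Ctnna2 ranged from -2.50 to 0.0066 with 1 library left out. Cdh2 stayed between 0.41 and 0.71 under all 12, with the lowest value, 0.41, without control 1. Among the edgeR fits of all 4 libraries, its unadjusted p was above 0.05 only with library totals as the sole scaling (0.0575). Fits without 1 library leave a genotype with 1 library, so their p-values are not set beside it. Cdh13 missed the stricter filter and has no value there. The ratio of Cdh1 to Cdh2 per length was 4.06 in mutant and 7.004 in control cells with the longest transcript as length. The cause of these differences was not tested, apart from the smaller number of libraries or genes that a setting itself brings. No paired analysis was possible because replicate numbers follow accession order and the labels tie no mutant library to a control library. With 2 libraries a genotype, the 6 abundant genes had at least 3958 counts in each library, and whether depth limited their comparison was not tested. Cdh13 had 0 to 207 counts, and its controls alone spanned 27 to 207, so depth and spread between libraries cannot be told apart there.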
